A study of Mus musculus with 2 samples.

Results

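The colony-stimulating factor and progenitor receptors are 6 of the 32285 genes counted in these libraries: Csf1r, Csf2ra, Csf2rb, Csf3r, Flt3 and Kit. They were chosen by name, with their levels in these libraries already known, so those levels are given below as a description and no statistic tests them. Each gene was followed through classes of cells gated on other genes. Microglia had at least 0.5% of their UMIs (unique molecular identifiers, each marking 1 captured RNA molecule) from P2ry12, Gpr34, Tmem119, Siglech, Fcrls and Olfml3 and under 1% from S100a8 and S100a9. Neutrophils had at least 3% from S100a8 and S100a9, progenitors had at least 0.2% from Mpo, Elane, Prtn3 and Ctsg, and the remaining cells were called other. None of the 6 receptors takes part in a gate.

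The cells came from male mice aged 23 weeks, 6 per genotype, whose brains were pooled within the genotype and gave 1 library each. Disc1 LI/LI mice are homozygous for the Disc1 locus impairment, which every cell of the body carries, and Disc1 WT/WT littermates were the controls. Both pools were dissociated with the transcription inhibitor actinomycin D, spread on a Percoll gradient, sorted as CD45lowCD11b+ cells and sequenced with 10x 3′ chemistry. With 1 library per genotype there was no replicate check, so a difference between the libraries compares 2 pools of brains, and every interval below is a 95% interval that covers counting error only.

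As background, CSF1R is the receptor for CSF1 and IL-34 and keeps microglia and other tissue macrophages alive. FLT3 and KIT belong to the same family of receptor tyrosine kinases. FLT3 serves early progenitors and dendritic cells, and KIT, the receptor for stem cell factor, serves blood stem and progenitor cells and mast cells. CSF2RA binds GM-CSF and signals through CSF2RB, the beta chain shared with the IL-3 and IL-5 receptors, while CSF3R, the receptor for G-CSF, drives the making of neutrophils.

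In the pattern described below, Csf3r stood high in neutrophils, Kit in conventional dendritic-like cells and Disc1 LI/LI progenitors, and Flt3 in dendritic-like cells. The bases just upstream of these 3 genes are shown for that reason. They are RefSeq promoter windows on build GRCm38.p6, cut where the GENCODE gene model begins, and read 5′ to 3′ on the strand of the gene. Csf3r is shown for chr4:126024409-126024549 (plus strand), Kit for chr5:75574737-75574915 (plus strand) and Flt3 for chr5:147400490-147400739 (minus strand), and capitals mark the letters GAGGAA, a core that the myeloid factor PU.1 is known to bind.
Csf3r: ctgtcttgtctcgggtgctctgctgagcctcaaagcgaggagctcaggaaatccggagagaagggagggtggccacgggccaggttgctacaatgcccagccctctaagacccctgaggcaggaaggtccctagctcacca
Kit: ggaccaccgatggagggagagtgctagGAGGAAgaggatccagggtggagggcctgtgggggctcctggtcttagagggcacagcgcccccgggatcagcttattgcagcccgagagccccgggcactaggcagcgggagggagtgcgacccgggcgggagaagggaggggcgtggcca
Flt3: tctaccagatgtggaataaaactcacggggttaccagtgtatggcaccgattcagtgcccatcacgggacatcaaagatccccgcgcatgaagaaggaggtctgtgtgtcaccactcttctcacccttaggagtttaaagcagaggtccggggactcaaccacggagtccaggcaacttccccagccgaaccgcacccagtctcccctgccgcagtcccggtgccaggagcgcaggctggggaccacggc

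Over the full 250 bases before the start, GAGGAA lay at -223 in Kit and at -86 in Csf3r, the latter within the bases not shown, and at -14 and -8 in Csf2ra, and Flt3 held none on either strand. Of 32851 promoter windows of this length, 23.3% held these letters on either strand. The letters TGTGGT, a RUNX-type core found in 14% of windows, and TTGCNNAA, a C/EBP-type core found in 9.56%, were absent from all 4 windows. A match or its absence describes the letters alone. The windows of Csf1r and Csf2rb were not used here.

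The Disc1 WT/WT library held 7032 cells that passed the filter and 33601957 UMIs in all its barcodes, and the Disc1 LI/LI library 7817 cells and 47731571 UMIs. Disc1 itself had 642 UMIs in the former and 22 in the latter. Although both libraries carry the cell type label microglia, the microglia gate took 6180 cells in Disc1 WT/WT against 1950 in Disc1 LI/LI. The neutrophil gate took 116 and 3622 cells, the progenitor gate 8 and 235, and 729 and 2079 cells were other. Close to the gates lay 302 and 210 cells with 0.4 to 0.6% of UMIs from the microglia genes, 4 and 44 with 2 to 4% from S100a8 and S100a9, and 1 and 43 with 0.15 to 0.25% from the progenitor genes. A cell could pass 2 gates, as 68 Disc1 LI/LI cells did for progenitors and neutrophils. Only 12 barcodes occurred in both libraries. Cells outside the 3 gates were placed by fixed markers, and lymphocyte-like cells (82 and 298), which should lack most of these receptors, served as the background for RNA from other cells.

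Over all cells, Csf1r was lower in Disc1 LI/LI, 4 receptors were higher and Csf3r was at the same level within counting error. Csf1r went from 1836 to 432 CPM (UMIs per 1000000 UMIs of the cells summed), a log2 ratio of -2.09 (-2.11 to -2.06). Kit went from 0.744 to 4.99, Flt3 from 2.05 to 4.72, Csf2ra from 70.9 to 130 and Csf2rb from 37.9 to 56.6 CPM. The level of Csf3r was 135 CPM in Disc1 WT/WT against 137 in Disc1 LI/LI, which gave a log2 ratio of 0.02 (-0.04 to 0.07), yet its UMIs came from different cells. Microglia gave 92.2% of Csf3r UMIs in Disc1 WT/WT against 15.4% in Disc1 LI/LI, where neutrophils gave 72.2%. In such sums, the number of cells of a class and the RNA per cell cannot be told apart, so the classes are taken in turn below.

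**Figure D1:**
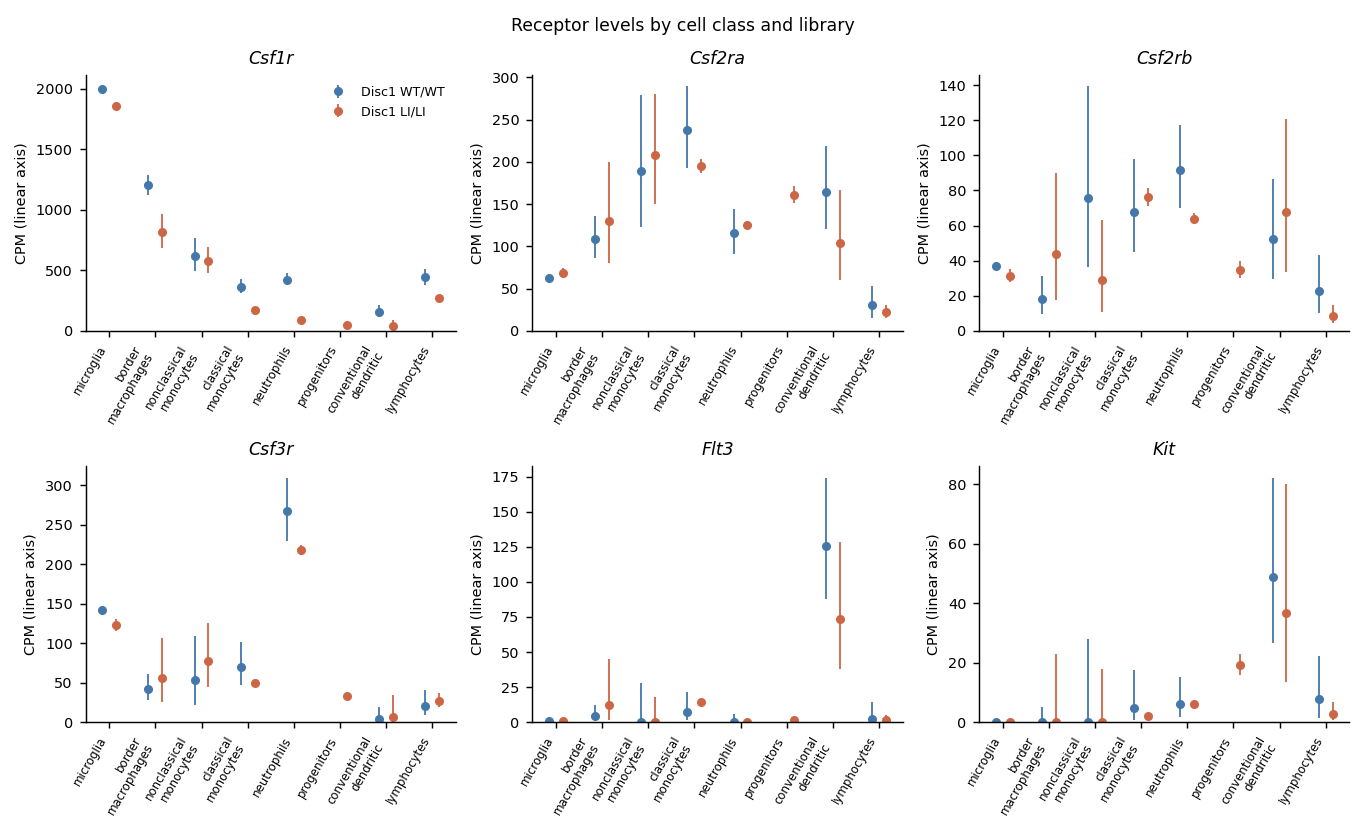
Level of each receptor (y axis, CPM, linear, with its own scale per panel) by cell class (x axis) in the Disc1 WT/WT (blue) and Disc1 LI/LI (orange) libraries; points are sums over cells and lines are 95% counting intervals, and the 8 Disc1 WT/WT progenitors are left out. Of the classes plotted, Csf1r was highest in microglia, Csf2ra in monocyte-like cells, Csf3r in neutrophils, and Flt3 and Kit in conventional dendritic-like cells, with Kit next in Disc1 LI/LI progenitors at 19.1 CPM.

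Csf1r (18:61100598-61132149, plus strand, mm10) was a receptor of macrophage-lineage cells in both libraries. In microglia it stood at 2002 CPM (1986 to 2018) in Disc1 WT/WT and 1858 (1829 to 1888) in Disc1 LI/LI, and 99.1% and 99.0% of the cells had at least 1 UMI. The median microglial cell held 9 Csf1r UMIs in Disc1 WT/WT against 7 in Disc1 LI/LI, with quartiles of 6 and 12 and of 5 and 10. Border macrophage-like cells followed with 1204 and 815 CPM, then nonclassical monocyte-like cells with 621 and 576, and classical monocyte-like cells with 366 and 175. The intervals of these 4 types did not overlap within Disc1 WT/WT, while in Disc1 LI/LI those of the border macrophage-like cells (681 to 967) and the nonclassical monocyte-like cells (477 to 689) overlapped. The level in microglia was 5.47 times that in classical monocyte-like cells in Disc1 WT/WT and 10.6 times in Disc1 LI/LI.

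Low Csf1r values outside these types were read beside microglia markers in the same cells. RNA that leaks between cells and droplets that mix cells cannot be told apart here, since no doublet caller was run. In lymphocyte-like cells Csf1r was at 22.1% of its microglial level in Disc1 WT/WT against 14.5% in Disc1 LI/LI, and the 12 microglia markers lay between 10.2 and 29.4% and between 7.28 and 18.5% of theirs. In Disc1 WT/WT neutrophils it was at 21.2%, within the marker range of 15.2 to 26.8%, and its 283 UMIs lay in 42 of 116 cells. In Disc1 LI/LI neutrophils it was at 4.96%, above all 12 markers (2.83 to 3.88%), and in Disc1 LI/LI progenitors at 2.63%, again above all 12 (0.723 to 1.85%). In classical monocyte-like cells it exceeded the highest marker in both libraries, at 18.3% beside 14.3% and at 9.39% beside 6.05%. Nonclassical monocyte-like cells showed the widest gap, at 31.0% in each library beside markers that reached 14.0 and 11.5%. Border macrophage-like cells were at 60.1 and 43.9%, beside markers that reached 64.8 and 26.2%, with marker medians of 14.6 and 15.5%.

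**Figure D2:**
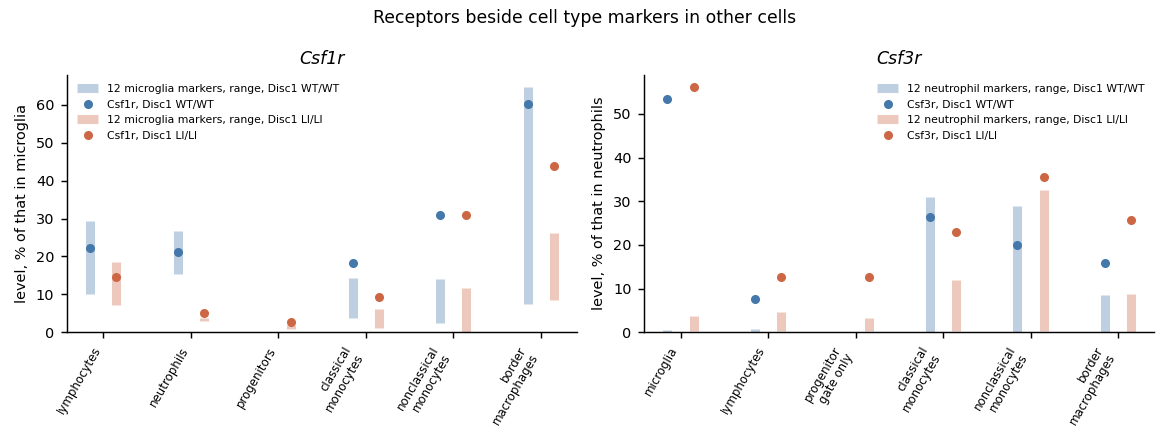
Level of Csf1r as a percentage of that in microglia (left) and of Csf3r as a percentage of that in neutrophils (right) in other cell classes (x axis); points are the receptor, bars span the lowest to the highest of 12 markers of the source class, blue is Disc1 WT/WT and orange Disc1 LI/LI. Csf1r lay inside the marker bars in lymphocyte-like cells and, for Disc1 WT/WT, in neutrophils and border macrophage-like cells. For the border macrophage-like cells of Disc1 WT/WT, the marker median was 14.6% beside 60.1% for Csf1r. Csf3r in microglia reached 53.4 and 56.2% of its neutrophil level, with markers at or below 3.76%.

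Csf3r (4:126024550-126044440, plus strand), whose upstream bases are shown above, was a receptor of neutrophils and of microglia alike. Neutrophils held 267 CPM (229 to 309) in Disc1 WT/WT and 218 (212 to 225) in Disc1 LI/LI, with a UMI in 65.5% and 66.3% of cells. Microglia held 143 (138 to 147) and 123 (115 to 131) CPM, with a UMI in 45.4% and 36.8% of cells. These microglial levels were 53.4% and 56.2% of the neutrophil levels, while the 12 neutrophil markers in microglia reached 0.0105 to 0.538% of theirs in Disc1 WT/WT and 0.221 to 3.76% in Disc1 LI/LI. After each cell was thinned to 1000 UMIs, Csf3r was found in 12.9% and 10.7% of microglia and in 1.22% and 3.70% of lymphocyte-like cells (7.32% and 11.1% before thinning). The share in microglia was above the lymphocyte-like background in both libraries, with intervals that did not overlap. Classical monocyte-like cells were at 70.3 CPM in Disc1 WT/WT, with an interval of 45.8 to 54.5 in Disc1 LI/LI. Nonclassical ones held 53.0 and 77.4 and border macrophage-like cells 42.5 and 56.0, and the intervals of these 3 types overlapped within each library. Conventional dendritic-like cells held 3.49 and 6.13, from 1 UMI each.

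Within the neutrophil gate, Csf3r was higher the fewer granule transcripts the cells carried. The cells were cut into tertiles, bounded at 0.644% and 4.91%, by the share of their UMIs from Camp, Ngp, Ltf and Lcn2, granule genes of immature neutrophils, and those also in the progenitor gate were set aside. This share is a range and not a cell type, and 287 of 3738 neutrophils lay within 10% of a bound. In Disc1 LI/LI, Csf3r went from 27.6 CPM in the 166 cells of the progenitor gate alone to 41.4 in the 68 cells of both gates. It then went to 69.5 in the tertile richest in granule transcripts, 285 in the middle tertile and 715 (686 to 744) in the poorest tertile. The Disc1 WT/WT neutrophils, 38, 31 and 46 cells in the tertiles, followed the same order with 94.3, 219 and 677 CPM. The poorest tertile exceeded the richest 7.18-fold in Disc1 WT/WT and 10.3-fold in Disc1 LI/LI.

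The cells were shallower along this series, with a median of 7766, 3838 and 2370 UMIs per cell over the tertiles of Disc1 LI/LI. Over the tertiles, Csf3r UMIs per cell nevertheless went up, from 0.652 to 1.23 and 2.03 in Disc1 LI/LI and from 0.789 to 1.16 and 2.39 in Disc1 WT/WT. The rise per cell did not span the whole series. Disc1 LI/LI cells of the progenitor gate alone held 0.639 Csf3r UMIs per cell, and those of both gates held 1.19, more than the richest tertile. These cells were deeper, with medians of 22828 and 29868.5 UMIs. At 1000 UMIs per cell the share with Csf3r over the tertiles was 8.02, 26.2 and 54.8% in Disc1 LI/LI and 13.2, 25.8 and 51.1% in Disc1 WT/WT. At that depth the Disc1 LI/LI cells of the progenitor gate alone had 1.24% and those of both gates 5.88%, from 2 and 4 cells. Both were below the richest tertile, but the interval for both gates (1.63 to 14.4%) overlapped with that of the richest tertile (6.54 to 9.72%). Between the genotypes, the log2 ratios within the tertiles were -0.44 (-0.97 to 0.14), 0.38 (-0.10 to 0.90) and 0.08 (-0.20 to 0.37), and none was resolved from 0 by counting.

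Csf2rb (15:78325752-78353847, plus strand), the shared beta chain, had the same order over the tertiles with a smaller range. In Disc1 LI/LI it went from 36.3 to 78.4 and 157 CPM and in Disc1 WT/WT from 50.3 to 103 and 172, which was 4.34-fold and 3.43-fold. Per cell its range was narrower than that of Csf3r, at 0.340, 0.339 and 0.448 UMIs in Disc1 LI/LI and 0.421, 0.548 and 0.609 in Disc1 WT/WT. Cells of the progenitor gate alone held 40.6 CPM in Disc1 LI/LI, and those of both gates 23.5. Over the whole gate neutrophils were at 91.4 CPM (69.9 to 117) in Disc1 WT/WT and 63.9 (60.6 to 67.4) in Disc1 LI/LI. Microglia stood at 36.9 and 31.5, and lymphocyte-like cells at 22.9 and 8.69 CPM. The highest value in any placed type was 340 CPM (194 to 552) in basophil and mast-like cells of Disc1 LI/LI, from 16 UMIs in 6 of 7 cells.

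The mouse has a close relative of this gene beside it, Csf2rb2 (15:78282507-78305721, minus strand), which serves IL-3 alone. Of the 4810 windows of 91 bases in the Csf2rb transcript, 387 (8.05%) also occur in Csf2rb2, but none of the 910 in its last 1000 bases, where 3′ counting gathers most reads. Csf2rb2 was counted at 11.1 and 8.08 CPM in microglia and at 6.00 and 2.87 in neutrophils.

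Csf2ra (19:61223957-61228429, minus strand), the GM-CSF binding chain, was highest in monocyte-like cells. Classical monocyte-like cells held 238 CPM (193 to 290) in Disc1 WT/WT and 195 (187 to 204) in Disc1 LI/LI, and nonclassical ones 189 and 208. Conventional dendritic-like cells followed in Disc1 WT/WT with 164, and Disc1 LI/LI progenitors held 161, with a UMI in 90.2% of cells. These types overlapped in their intervals in Disc1 WT/WT, while in Disc1 LI/LI the classical monocyte-like cells lay above the progenitors (151 to 172). Neutrophils were at 115 and 125, microglia at 62.6 and 68.5, and lymphocyte-like cells at 30.5 and 22.1 CPM. The level in classical monocyte-like cells was 3.80 times that in microglia in Disc1 WT/WT and 2.85 times in Disc1 LI/LI. Over the neutrophil series of Disc1 LI/LI, Csf2ra had no single direction in CPM, with 159, 164, 99.1, 147 and 156 from the progenitor gate to the poorest tertile. Per cell, Csf2ra in Disc1 LI/LI went from 4.72 UMIs in cells of both gates to 0.930, 0.635 and 0.443 over the tertiles. The depth of the cells fell along with it. With cells thinned to equal depth, the share with Csf2ra was 9.38, 12.6 and 14.1% over the tertiles of Disc1 LI/LI. In Disc1 WT/WT it was 5.26, 9.68 and 11.1%, from 2, 3 and 5 cells. At equal depth these shares had the same order over the tertiles as Csf3r, but the intervals of neighbouring tertiles overlapped. Only the richest and poorest tertiles of Disc1 LI/LI lay apart (7.78 to 11.2% and 12.1 to 16.2%). Csf2ra levels in the Disc1 WT/WT tertiles were 171, 136 and 275% of the microglial level, with no single direction.

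**Figure D3:**
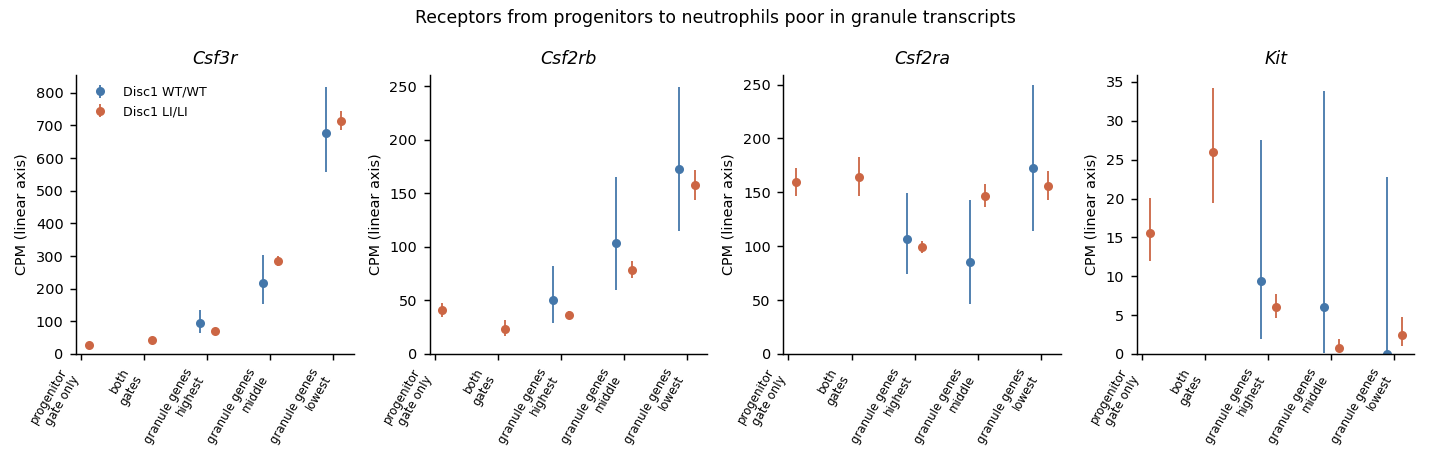
Levels of Csf3r, Csf2rb, Csf2ra and Kit (y axis, CPM, linear) from the progenitor gate through the neutrophils richest to those poorest in Camp, Ngp, Ltf and Lcn2 (x axis); points are sums over cells, lines 95% counting intervals, blue Disc1 WT/WT and orange Disc1 LI/LI, with the 8 Disc1 WT/WT progenitors left out. Csf3r reached 677 and 715 CPM in the poorest tertile, whereas Kit was highest, at 26.0, in the Disc1 LI/LI cells of both gates.

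Kit (5:75574916-75656722, plus strand), shown above with its GAGGAA core, was higher in the progenitor gate of Disc1 LI/LI than over the neutrophil tertiles of that library. It stood at 15.6 CPM (11.9 to 20.1) in the Disc1 LI/LI cells of the progenitor gate alone and at 26.0 (19.4 to 34.2) in those of both gates. Over the tertiles it stood at 6.03, 0.775 and 2.39, from 67, 4 and 8 UMIs. In Disc1 WT/WT neutrophils only 4 Kit UMIs were found, or 6.00 CPM (1.63 to 15.4), and the whole Disc1 LI/LI neutrophil gate was at 6.02. Lymphocyte-like cells were at 7.64 and 2.67 CPM from 3 and 4 UMIs, no lower than the neutrophils in Disc1 WT/WT. All 3 of those Disc1 WT/WT UMIs lay in the 17 NK-like cells, and T-like and B-like cells held 0. In the whole Disc1 LI/LI neutrophil gate, cells with cycling transcripts held 16.3 CPM and the rest 2.75. That split includes the 68 cells of both gates, which gave 51 of the 130 Kit UMIs of the neutrophil gate. The 235 Disc1 LI/LI progenitors held 111 Kit UMIs in 65 cells (27.7%, 22.0 to 33.9%), while the 8 Disc1 WT/WT progenitors held 0, which allows up to 14.3 CPM. These progenitors are deep cells, and once thinned to 1000 UMIs only 2 of 230 showed Kit (0.870%), beside 1 of 297 lymphocyte-like cells (0.337%). Microglia gave 2 Kit UMIs in Disc1 WT/WT against 0 in Disc1 LI/LI, the latter allowing up to 0.367 CPM. Outside the granulocyte line, conventional dendritic-like cells held 48.9 CPM (26.7 to 82.0) in Disc1 WT/WT and 36.8 (13.5 to 80.1) in Disc1 LI/LI, from 14 and 6 UMIs.

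The Disc1 LI/LI progenitors with a Kit UMI differed from the rest in the granule programme they carried. Neutrophil elastase (Elane) was at 23414 CPM in the 65 cells with Kit and at 8916 in the 170 without. Mpo was at 7247 and 2643, Prtn3 at 14302 and 6215, and Ctsg at 5352 and 2303, all proteins of the primary granules made at the promyelocyte stage. The early factors Myb and Gfi1 were at 221 and 69.7 and at 107 and 35.7 CPM, whereas the early factor Cebpa was at 53.0 and 53.4. Genes of cycling cells were lower or alike in the cells with Kit, with Mki67 at 92.8 and 190.0, Top2a at 215 and 358, Birc5 at 186 and 328 and Cdk1 at 176 and 178 CPM. The later granule genes went the other way, with Camp at 6525 in cells with Kit and 9052 without, and Ngp at 3160 and 5672. Among the receptors, Csf3r was higher in the cells with Kit (46.9 and 24.2), and Csf2ra (115 and 188) and Csf2rb (19.2 and 43.8) were lower. Cells with Kit were also deeper, with a median of 34595 UMIs beside 21265. A Kit UMI lay in 42.6% of the 68 cells of both gates and in 21.7% of the 166 of the progenitor gate alone. The parts of depth and of this mix of gates in these differences were not tested.

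**Figure D4:**
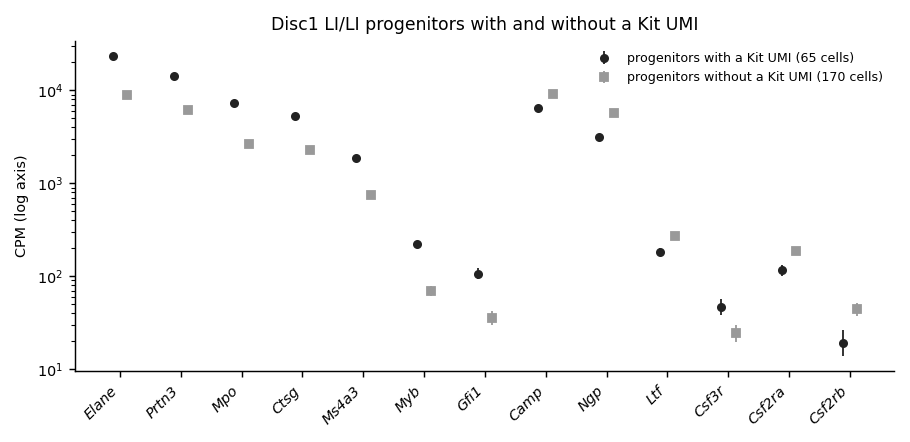
Levels of granule genes, early factors and receptors (y axis, CPM, log scale) in Disc1 LI/LI progenitors with (65 cells, black circles) and without (170 cells, grey squares) a Kit UMI; lines are 95% counting intervals. Primary granule genes, Myb, Gfi1 and Csf3r were higher with Kit, and Camp, Ngp, Ltf, Csf2ra and Csf2rb were higher without.

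Flt3 (5:147330741-147400489, minus strand), whose upstream bases shown above hold none of the 3 cores, did not exceed 23.9 CPM in any class or type outside the dendritic-like cells. Conventional dendritic-like cells held 126 CPM (88.1 to 174) in Disc1 WT/WT and 73.6 (38.0 to 129) in Disc1 LI/LI, from 36 UMIs in 21 cells and 12 UMIs in 15 cells. Their share with a UMI was 66.7% and 53.3%. The 18 plasmacytoid dendritic-like cells of Disc1 LI/LI were at 50.9 (18.7 to 111), which overlapped with the conventional ones. Microglia were at 0.578 and 0.734 CPM, neutrophils at 0 and 0.324, and Disc1 LI/LI progenitors at 1.72. Lymphocyte-like cells, at 2.55 and 1.34 from 1 and 2 UMIs, were no lower than microglia or neutrophils. The values of microglia and neutrophils were thus not above this background. The Disc1 LI/LI progenitor value came from 10 UMIs and was above the 1.34 of the lymphocyte-like cells of that library. A background of 2 UMIs is too sparse to say whether the progenitor value exceeds it. Other cells held 75.4% of Flt3 UMIs in Disc1 WT/WT against 89.8% in Disc1 LI/LI.

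Most of the Disc1 LI/LI Flt3 UMIs came from cells that the markers placed with classical monocytes. Of these 1333 cells, 121 (9.08%, 7.59 to 10.7%) had a Flt3 UMI, at 14.3 CPM over all of them, and in Disc1 WT/WT 3 UMIs were found among 50 cells. The cells with Flt3 carried more transcripts of antigen presentation, with Cd74 at 8562 beside 2371 CPM in the 1212 cells without, and H2-Aa at 2754 beside 691. Cd209a, a lectin of monocyte-derived dendritic cells, was at 558 beside 129, and Irf8 at 302 beside 133. They carried fewer of the classical monocyte genes Ly6c2 (845 beside 1513), Fn1 (437 beside 875) and Chil3 (920 beside 2303 CPM), whereas Ccr2 was at 863 and 905. The median depth of the groups was 7360 and 6875 UMIs. These genes were chosen after their values were seen, so the contrast is a description.

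The receptors overlapped within single cells. Among Disc1 LI/LI progenitors, 55 of the 65 cells with Kit also had Csf3r and 62 had Csf2ra, while 3 had Flt3. Over all 235 progenitors of that library, 115 had Csf3r, 212 had Csf2ra and 8 had Flt3. Of these 235 cells, 9 had none of the 6 receptors, 26 had 1, 67 had 2, 79 had 3, 41 had 4, 12 had 5 and 1 had all 6. In Disc1 LI/LI neutrophils, which are shallower, the most frequent number was 1 (1360 of 3622 cells) and 5 was the highest, in 5 cells. Flt3 and Kit were found together in 19 of the 35 other cells of Disc1 LI/LI that had Kit, and in 0 of the 102 neutrophils with Kit. Flt3 was found in 159 of all 2079 other cells but in only 7 of all 3622 neutrophils. With Flt3 so rare in neutrophils, the 0 there was close to set in advance and is not read as a contrast. Such counts move with depth.

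Receptors past a fold of 1.5 between the genotypes were counted within each class. A gene entered this count with at least 50 CPM in a library and 50 UMIs in all. In microglia 3 of the 6 receptors entered with 0 higher and 0 lower in the Disc1 LI/LI library, where 1.27% of 3556 genes were higher and 13.1% lower. In neutrophils 4 entered, 0 were higher and 1 (Csf1r) lower, beside 6.00% higher and 35.6% lower among 2433 genes. In other cells 4 entered, 1 (Csf2rb) was higher and 1 (Csf1r) lower, beside 16.3% and 27.2% of 3225 genes. The levels that chose the receptors are the same as those compared here, so nothing is read from these counts.

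The sizes were as follows. In microglia Csf1r had a log2 ratio of -0.11 (-0.13 to -0.08), Csf2ra 0.13 (-0.01 to 0.27), Csf2rb -0.23 (-0.43 to -0.03) and Csf3r -0.22 (-0.32 to -0.12), where the median of all genes tested was -0.12. Long genes were lower there, and the 200 genes nearest in length to Csf1r had a median of -0.25 and those nearest to Csf3r -0.10. In neutrophils Csf1r had -2.20 (-2.38 to -2.02), Csf2ra 0.12 (-0.21 to 0.46), Csf2rb -0.52 (-0.89 to -0.12) and Csf3r -0.29 (-0.50 to -0.06), beside a median of -0.36. The 12 microglia markers summed to 5892 CPM in Disc1 WT/WT neutrophils and 1071 in Disc1 LI/LI neutrophils, and their part in the Csf1r ratio was not tested. With cells thinned to 1000 UMIs, the Csf1r ratio in neutrophils was -1.43. TMM scaling raised every ratio by 0.13 in microglia, 0.54 in neutrophils and 0.49 in other cells. With it Csf1r in microglia became 0.02, Csf2rb in neutrophils 0.03 and Csf3r in neutrophils 0.25, all with the opposite sign.

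**Figure D5:**
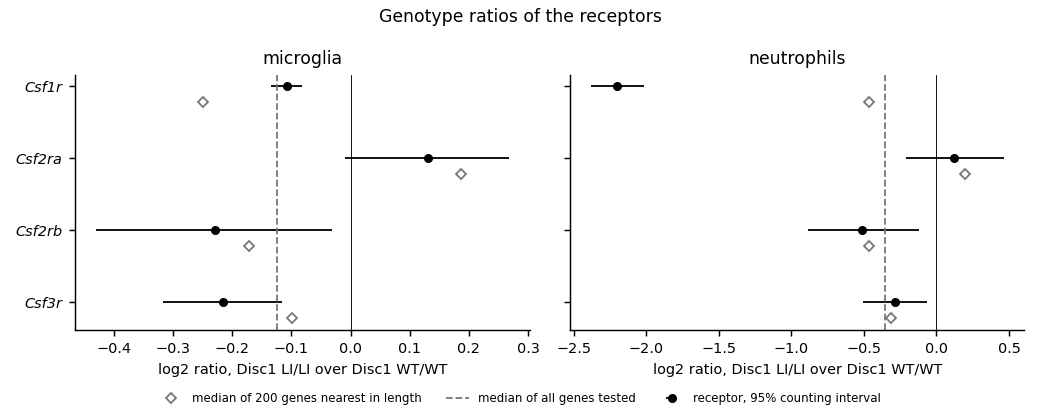
Log2 ratio of Disc1 LI/LI over Disc1 WT/WT (x axis) for 4 receptors in microglia (left) and neutrophils (right), with black points and 95% counting intervals, diamonds for the median of the 200 genes nearest in length and a dashed line for the median of all genes tested. Csf1r in neutrophils, at -2.20, was the value farthest from these medians; Csf1r in microglia and Csf2rb and Csf3r in neutrophils turned positive with TMM scaling (0.02, 0.03 and 0.25).

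In other cells, Csf1r went from 756 to 229 CPM, a log2 ratio of -1.72 (-1.80 to -1.65), and Csf2rb from 34.6 to 64.1, a ratio of 0.89 (0.61 to 1.18). The make-up of this class differed, with 50 and 1333 classical monocyte-like cells and 178 and 36 border macrophage-like cells. Among classical monocyte-like cells Csf1r was still lower in Disc1 LI/LI, at -1.07 (-1.31 to -0.82), and Csf2rb was at 67.9 and 76.1 CPM, a ratio of 0.17 (-0.38 to 0.76). In nonclassical monocyte-like cells Csf1r was at -0.11 (-0.53 to 0.31). Csf1r was also at -0.72 (-0.98 to -0.45) in lymphocyte-like cells, the background class.

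The ligands of these receptors were scarce in microglia, apart from stem cell factor. Kitl, which encodes it, was at 56.7 CPM in Disc1 WT/WT microglia and 58.4 in Disc1 LI/LI microglia, a log2 ratio of 0.04 (-0.11 to 0.19). Csf1 was at 6.16 and 6.73 and Flt3l at 2.86 and 1.84, and Il34 had 2 and 0 UMIs in microglia. Csf2, Csf3, Il3 and Il5 had 0 UMIs in microglia of both libraries.

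Of the 78 genes listed around these receptors by role, 33 entered the count in microglia, with 0 higher and 3 lower in the Disc1 LI/LI library, beside 1.27% and 13.1% of all genes. Among these was Il6st, the signal chain of IL-6 receptors (-0.82). The median over the 33 was -0.29 beside -0.12 for all genes, and the myeloid factor Spi1, which encodes PU.1, was at 473 and 487 CPM. In neutrophils 28 entered, 1 was higher and 15 lower, beside 6.00% and 35.6% of all genes, with a median of -0.63 beside -0.36. Cebpe, a factor needed for secondary granules, was the higher gene, at 148 and 260 CPM. Among those lower were Il6ra (-1.36), the kinases Lyn (-0.79) and Jak1 (-0.81), the phosphatase Inpp5d (-1.45), and the macrophage factor Maf (-2.86). The 12 microglia markers summed to 5892 CPM in Disc1 WT/WT neutrophils and 1071 in Disc1 LI/LI neutrophils. The part of this microglial RNA in the neutrophil counts and ratios was not tested. In other cells 34 entered, with 4 higher and 10 lower, beside 16.3% and 27.2% of all genes, and a median of -0.11 beside -0.06. The 4 were the kinases Fgr (1.35) and Pim1 (2.05), the signal inhibitor Socs3 (3.39) and Cebpb (1.71). Other cells were not the same mixture in both libraries, with 50 and 1333 classical monocyte-like cells and 178 and 36 border macrophage-like cells. The part of this make-up in the counts and ratios of other cells was not tested. In Disc1 LI/LI progenitors the IL-3 receptor chain Il3ra was at 52.2 CPM.

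Over 15 points, each a class or type of at least 50 cells in a given library, the genes most like each receptor were sought. The search covered 5429 genes by Pearson correlation of log2(CPM + 10). Csf1r was most like Aftph (0.984), Abhd12, Man2b1 and Mef2a. Csf3r was most like Slain2 (0.935), Ncf1, Ppp1r2 and Trib1. Csf2ra was most like Igsf6 (0.965), Alox5ap, Eif4ebp1, Cebpb and Mapkapk2, and Csf2rb was most like Alox5ap (0.901), Mfsd14b, Tnfaip2 and Nhsl2. Kit was nearest to 1700020L24Rik (0.818), Lbp, Ms4a3, Ctsg and Prg2, and Flt3 to Ifi205 (0.880), Cd209a, Ifi211, Fn1 and Rnd3, both from low levels. Between the receptors the highest value was 0.811 for Csf2ra with Csf2rb and the lowest -0.723 for Csf1r with Kit. The points share 2 libraries and partly the same cells, so these values describe the points and no more.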

How the data were processed

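Single-cell RNA sequencing of CD45lowCD11b+ brain cells was used from 2 libraries, 1 per genotype. The authors deposited raw UMI counts per gene and cell as filtered matrices, made with Cell Ranger (6.1.2 in the matrix header) and STAR on mm10, per the submitters' processing notes and file headers, which also name Seurat 3.0.1. Which chip and kit version served which library is not given in the sources used here. The study states fewer cells than these matrices hold. Barcodes under 200 genes or over 10% mitochondrial UMIs (6 and 17) were dropped, and no doublet caller was run. Receptor counts were summed per library and gated class and given as CPM, UMIs per 1000000 UMIs of the class. Intervals at 95% were exact Poisson for levels, Clopper-Pearson for shares and conditional binomial for ratios. No test was run, since each genotype has 1 library.

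Cells outside the gates took the type with the most of its fixed markers detected, at least 3 and with no tie. The 6 receptors, the 78 pathway genes by role and the 5 genes most like each receptor were the genes to be named, with at most 4 pathway genes per role past a fold of 1.5. Some genes that met this rule are not reported here. The receptors and lists were chosen with earlier results of these data known. Gene positions were read from GENCODE on mm10, promoter windows from RefSeq. The tools were scipy 1.17.1, numpy 2.4.6 and pandas 2.3.3 under Python 3.11.15, and edgeR 4.0.16 (TMM factors only) under R 4.3.3, and the ratio intervals were tested on simulated data. The 10 alternatives concerned the cell filter, the gates, the denominator, depth, the deepest cells and shared barcodes. Neutrophil tertiles outside the progenitor gate were added after the data were seen.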

Additional observations from a re-analysis of the deposited data

Results flagged for a closer look

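The log2 ratio of Csf2rb, Disc1 LI/LI over Disc1 WT/WT, was 0.89 (0.61 to 1.18) in other cells, -0.23 (-0.43 to -0.03) in microglia and -0.52 (-0.89 to -0.12) in neutrophils. It stood out because the classes pointed in opposite directions under the same contrast. The difference between the classes was not tested. The other cells were not the same mixture in both libraries, and in classical monocyte-like cells alone the ratio was 0.17 (-0.38 to 0.76). The 200 genes nearest in length to Csf2rb had median ratios of -0.15 in other cells, -0.17 in microglia and -0.47 in neutrophils. With TMM scaling the Csf2rb ratio was 1.38 in other cells, -0.097 in microglia and 0.03 in neutrophils.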

How the results depend on the processing

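Of 70 values for the ratios of Csf1r in microglia and of Csf2ra, Csf2rb and Csf3r in microglia and neutrophils under 10 alternatives, 58 moved by less than their counting interval. Csf1r in neutrophils (-2.20) stayed negative under all 10 and moved further under 5, to -1.95 with stricter gates, -1.66 with TMM, -1.76 as a mean over cells, -1.43 when thinned and -1.71 without the deepest cells. TMM scaling changed the sign of Csf1r in microglia (0.024), Csf2rb in neutrophils (0.028) and Csf3r in neutrophils (0.25), and gave 0.66 for Csf2ra in neutrophils and -0.084 for Csf3r in microglia, by construction of a shift common to the class. Thinning to 1000 UMIs per cell gave -0.057 for Csf1r and -0.43 for Csf2rb in microglia, and 0.60 for Csf2ra and -0.054 for Csf3r in neutrophils. Stricter gates gave -0.051 for Csf1r in microglia and -0.042 for Csf3r in neutrophils. Requiring 1000 genes and at most 5% mitochondrial UMIs gave -0.87 for Csf3r in neutrophils, where it left 75 of 116 cells of Disc1 WT/WT, against 1829 of 3622 of Disc1 LI/LI. The cause of these last shifts was not tested. Of 98 values for the ratios outside the first 70, Csf1r in neutrophils included, 76 moved by less than their interval. No paired analysis was possible because each genotype has 1 library. Sparse receptors are limited by depth, since 0 Kit UMIs in Disc1 LI/LI microglia allow up to 0.367 CPM.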
